A study of Homo sapiens with 12 samples.

Results

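The insulin receptor gene INSR, the IGF-1 receptor gene IGF1R, the docking protein genes IRS1, IRS2 and IRS4, the adaptor gene GRB10 and the transcription factor genes FOXO1, FOXO3 and FOXO4 were followed in HEK293E cells, a human embryonic kidney line. They were chosen by symbol, and all 9 had a row among the 17520 genes of the expression table. Sites of N6-methyladenosine (m6A) inside their gene bodies and on the gene strand numbered 159 of 96671 in the list for insulin and 119 of 63578 in the list for insulin with Torin1. All cells were starved of serum overnight and then given 200 nM insulin for 30 h. One group received insulin alone and the other was first exposed to 250 nM Torin1, which blocks the mTOR kinase. Each group had 3 input RNA-seq libraries and 3 miCLIP libraries of mRNA selected on poly(A). In miCLIP an antibody against m6A is crosslinked to RNA, and substitutions in the reads mark the methylated adenosine. No untreated or unstarved cells were compared here, so each difference is between insulin with Torin1 and insulin alone. The submitters call the triplicates biological.

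INSR and IGF1R encode receptor tyrosine kinases that bind insulin and insulin-like growth factors and phosphorylate the IRS docking proteins. IRS proteins recruit PI3-kinase, which leads to activation of AKT, and AKT phosphorylates FOXO proteins so that they are held outside the nucleus. Genes for INSR and IRS2 are textbook FOXO targets, while mTOR signalling restrains the upper pathway through IRS1 and the adaptor GRB10. IRS4 is known as a docking protein of HEK293 cells.

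The input libraries had totals of 11418114 to 12528454 normalized units, the authors' values after scaling between libraries. Totals were 11418114 to 11438881 with Torin1 and 12424643 to 12528454 without. Of 8 table rows among markers of the HEK293 line, 7 passed the filter on low values, among them LIN28B and the neurofilament gene NEFM. IRS4, itself one of the 9 genes, also passed, while PAX2, at 6 to 11 units, did not. Markers of differentiated kidney were scarce, with 3 of 8 passing, and blood, fibroblast and endothelial markers passed in 3 of 6 and 2 of 5. The 6 blood cell rows had sums of 151 to 168 units in the insulin libraries and 49 to 58 in the Torin1 libraries, while PTPRC and CD3E were at 0 or 1. The 5 fibroblast and endothelial rows had sums of 192 to 243 and 529 to 549, mostly COL1A1. The 3 hepatocyte and keratinocyte rows stayed at 9 to 14 in all 6 libraries. The part of these other cell type markers in the results below was not tested. In such bulk libraries fewer cells of a type and less RNA per cell cannot be told apart.

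All 9 genes differed between the groups, 6 upward and 3 downward. A gene was called at a Benjamini-Hochberg adjusted p below 0.05 from limma, and 86.0% of the 13842 tested genes were called, 43.4% higher and 42.5% lower with Torin1. A count of 9 of 9 therefore stands beside a background in which most genes were called. Beyond 1.5-fold, 5 of the 9 were higher and 0 lower, beside 25.0% and 22.5% of all tested genes. The groups of 3 libraries did not overlap for any of the 9, as for 86.3% of tested genes. On the log2(value + 1) scale used throughout, the 9 genes had a median change of 0.69 and all tested genes one of 0.02. Without a transcript length for each gene, levels were compared between groups but not between genes.

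INSR mRNA stood at 627, 652 and 602 units with insulin and at 1023, 1023 and 988 with Torin1. Each Torin1 library lay above each insulin library by a wide gap. The means were 627 ± 25 and 1011 ± 20.2 (SD, n = 3 each), a 1.61-fold rise and a log2 fold change of 0.69 ± 0.05 (limma SE, adjusted p = 7.3e-12). The rise beyond 1.5-fold was narrowly called (limma adjusted p = 0.0491).

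IGF1R, which encodes the closely related receptor, moved the other way. Its values were 2905, 2620 and 2677 units with insulin and 2171, 2190 and 2141 with Torin1. The lowest insulin library was above the highest Torin1 library. The mean fell from 2734 ± 151 to 2167 ± 24.7 (SD, n = 3 each), on the log2 scale a change of -0.33 ± 0.04 (limma adjusted p = 4.0e-08). This fall depended on scaling: it was -0.21 with libraries scaled to equal totals and -0.04, not called, with quantile normalization (limma adjusted p = 0.327). The gene body of IGF1R holds the start of the antisense RNA gene IRAIN, and whether counting used strand is not given in the sources used here.

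IRS2 encodes a docking protein with a central part in insulin action in liver and islets. It stood at 3260, 3037 and 2856 units with insulin and at 5004, 5204 and 5117 with Torin1, with no overlap. The mean went from 3051 ± 202 to 5108 ± 100.3 (SD, n = 3 each), a 1.67-fold rise and a log2 fold change of 0.75 ± 0.04 (limma adjusted p = 2.1e-14). It passed the test beyond 1.5-fold (adjusted p = 6.5e-04).

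IRS1, the first described docking protein of the family, had values of 111, 116 and 110 with insulin and 188, 178 and 153 with Torin1. The Torin1 libraries were all higher but spread more widely. The log2 fold change was 0.61 ± 0.11 (limma adjusted p = 2.4e-05), and the test beyond 1.5-fold was not passed (adjusted p = 0.693). With quantile normalization the rise was 0.25 (limma adjusted p = 0.0418).

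IRS4 was near the filter on low values with insulin, at 12, 11 and 19 units, and rose to 49, 53 and 57 with Torin1. In 2 of the insulin libraries and 1 of the Torin1 libraries the value of a single read could be read from the grid of low values, and IRS4 there came to 7 and 8 reads against 41. The mean rose 3.79-fold, from 14 ± 4.36 to 53 ± 4 (SD, n = 3 each). Its log2 fold change of 1.88 ± 0.24 was the largest of the 9 genes (limma adjusted p = 2.1e-07, and 3.8e-05 beyond 1.5-fold). The annotated start of IRS4 overlaps the antisense RNA gene IRS4-AS1, so reads of the pair cannot be told apart unless strand was used.

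GRB10 encodes an adaptor that binds the activated receptors and damps their signal, and it is an mTOR substrate at the protein level. Its mRNA went from 473, 432 and 425 units with insulin to 932, 924 and 961 with Torin1. The group means, 443 ± 25.9 and 939 ± 19.5 (SD, n = 3 each), differed 2.12-fold. The log2 fold change was 1.08 ± 0.06 (limma adjusted p = 1.2e-14), also beyond 1.5-fold (adjusted p = 2.0e-08). In every scaling tried the value stayed between 1.08 and 1.21.

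The FOXO genes moved in different directions. FOXO4 stood at 385, 374 and 366 units with insulin and at 667, 657 and 673 with Torin1. The libraries of each group were tightly grouped and far apart, and the log2 fold change was 0.83 ± 0.06 (limma adjusted p = 4.3e-12). The rise was 1.78-fold, from 375 ± 9.54 to 666 ± 8.08 (SD, n = 3 each), and was also called beyond 1.5-fold (adjusted p = 5.1e-04).

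FOXO1 was lower with Torin1, at 325, 342 and 262 units against 410, 361 and 371 with insulin. The gap between the groups was small, and the third Torin1 library lay apart from the other Torin1 values. The mean went from 381 ± 25.9 to 310 ± 42.1 (SD, n = 3 each), on the log2 scale a change of -0.30 ± 0.09 (limma adjusted p = 0.0028). Without Torin1 replicate 3 it was -0.19 (limma adjusted p = 0.0377), and with libraries scaled to equal totals it was -0.18 and not called (limma adjusted p = 0.0581).

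FOXO3 showed the smallest change, from 1010, 1001 and 1001 units to 905, 909 and 947. The log2 fold change of -0.13 ± 0.04 was called (limma adjusted p = 0.0126), but it was 0.00 with scaling to equal totals and 0.02 with quantile normalization. Without Torin1 replicate 1 it was -0.11 (limma adjusted p = 0.0640). FOXO3 has a near-identical copy, FOXO3B, and how shared reads were counted is not given in the sources used here.

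**Figure D1:**
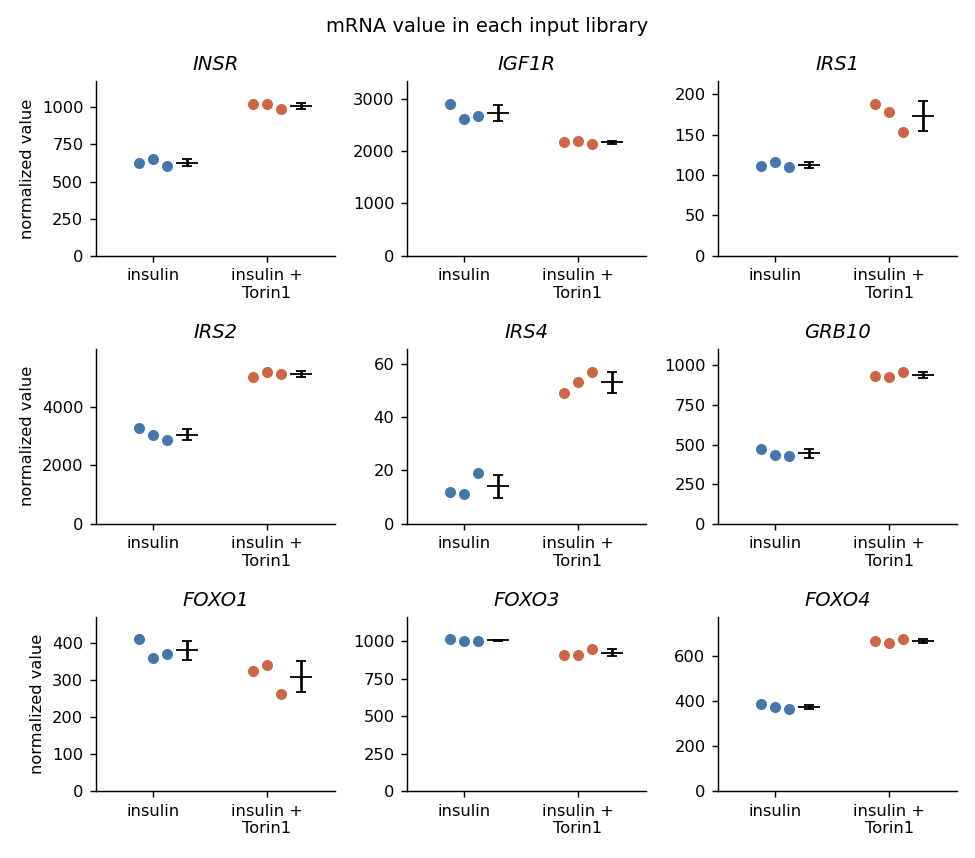
Normalized mRNA value (vertical axis, from 0) in each of the 6 input libraries for the 9 genes. Points are libraries and black bars the mean ± SD (n = 3), and INSR, IRS1, IRS2, IRS4, GRB10 and FOXO4 sit higher with Torin1 while IGF1R, FOXO1 and FOXO3 sit lower.

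The split of 6 higher and 3 lower did not survive the other scalings on its lower side. Scaling to equal totals, which shifted the median over all genes from 0.02 to 0.15 on the log2 scale, gave 6 higher and 1 lower. Here IGF1R was the gene called lower. Quantile normalization also gave 6 higher and 1 lower, but there the gene was FOXO1, at -0.46 (limma adjusted p = 8.3e-05). The 6 rises were called under each of these scalings and with any 1 library left out.

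**Figure D2:**
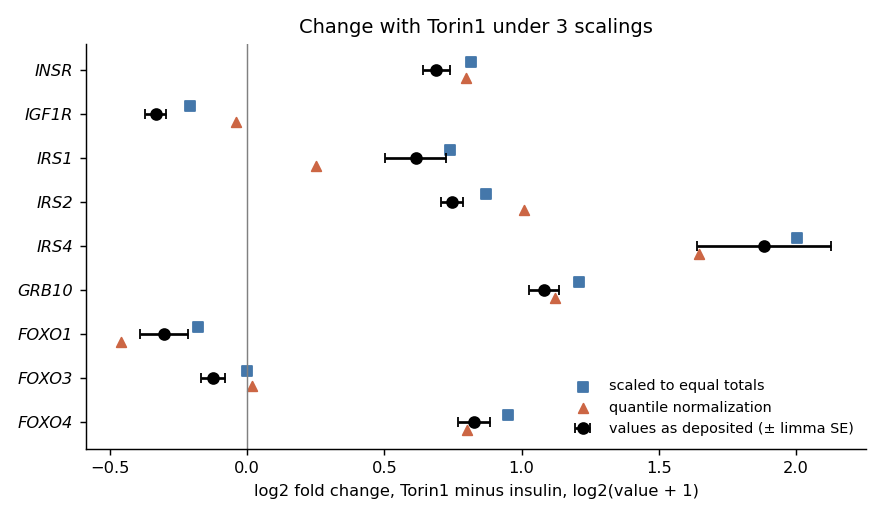
Log2 fold change (horizontal axis, Torin1 minus insulin) of each gene as deposited (black, ± limma SE), after scaling to equal totals (blue squares) and after quantile normalization (orange triangles). The 6 rises stay to the right of 0 throughout, from 0.25 for IRS1 with quantile normalization to 2.00 for IRS4 with equal totals, while FOXO3 lies at 0.00 and 0.02 in the alternatives.

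Promoter sequences were searched because 6 of the 9 genes rose together. RefSeq (GRCh38.p14) gave 17 windows for the 9 genes, each from 250 bases before to 50 after an annotated start, beside 22199 windows of protein-coding genes. The FOXO consensus GTAAACA, on either strand, was in 1 window, that of FOXO4, and in 2.85% of all windows. CAAAACA, the core of the insulin response sequence, was in 2 of the 17 windows, those of IRS2 and IRS4, and in 4.01% of all windows. The E-box CACGTG was in 2 of the 17 windows, those of IRS1 and IRS4, and in 8.34% of all windows. GTAAACA and CAAAACA share their last 5 letters, and a match is only a run of letters. The IRS2 bases before its start (chr13:109786584-109786833, minus strand, 5′ to 3′) are shown with the reverse form of CAAAACA in capitals, which begins 40 bases before the start.

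IRS2 promoter: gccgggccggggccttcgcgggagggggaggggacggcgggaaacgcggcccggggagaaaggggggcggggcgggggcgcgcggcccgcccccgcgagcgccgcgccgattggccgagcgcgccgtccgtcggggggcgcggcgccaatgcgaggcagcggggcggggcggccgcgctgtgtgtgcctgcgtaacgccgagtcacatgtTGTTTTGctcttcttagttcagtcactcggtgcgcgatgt

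The rest of the pathway was read from lists of ligands, receptors, adaptors, attenuators, FOXO regulators and FOXO targets. Leaving the 9 genes out, 113 listed genes were tested, of which 39 were called higher and 59 lower, beside 43.4% and 42.5% of all tested genes. Their median change was -0.21 on the log2 scale. Of these, 3 genes, IGFBP3 and INSRR among them, reached the filter's 10 units only with Torin1, so the filter fixed their direction. Without them 36 of 110 were higher and 59 lower.

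Ligand and binding protein genes were scarce. Leaving out IGFBP3, 3 of 5 tested genes were called higher and 0 lower, with a median of 1.43, beside 43.4% higher among all tested genes, while IGFBP4 at 0.32 and IGFBP6 at -0.06 were not called and IGF1 was too low to be tested. IGFBP2, which encodes a carrier of insulin-like growth factors, went from 45.0 ± 6.56 to 253 ± 3.79 units, and IGFBP5 from 25.3 ± 3.21 to 129 ± 11.9 (SD, n = 3 each). Their log2 fold changes were 2.48 and 2.31. IGF2, at 1.43, lay below the level set for naming and is named after its value was seen, as are IGFBP3, IGFBP4 and IGFBP6. IGFBP3 stood at 3, 4 and 4 units with insulin and at 41, 35 and 53 with Torin1. Of the related receptor genes other than INSRR, 2 of 5 rose and 2 fell, beside 43.4% higher and 42.5% lower among all tested genes. ERBB2 rose by 2.07 and EGFR by 2.01, both encoding receptor kinases of the EGF family, while IGF2R, which encodes the receptor that clears IGF-2, was at -0.53 and ERBB4 at -0.85. INSRR, also named after its values were seen, stood at 2, 1 and 2 units with insulin and at 27, 35 and 22 with Torin1.

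Adaptors that carry the signal from receptors and IRS proteins were mixed, with 8 of 21 higher, 10 lower and a median of -0.30. Tested genes as a whole were mixed as well, with 43.4% called higher and 42.5% lower. SH2B3, an adaptor and inhibitor of receptor kinases, fell from 1800 ± 39.4 to 207 ± 5.03 units (SD, n = 3 each), which is -3.11 on the log2 scale. CRKL changed by -2.22 and CBL, which encodes a ubiquitin ligase for activated receptors, by -1.56. NCK2 rose by 1.89, GRB14, the closest relative of GRB10 in this list together with GRB7, by 1.55, and SHC2 by 1.47.

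Attenuators of the receptors and of IRS proteins were also split, with 10 of 22 higher and 8 lower and a median of 0.03. These counts stand beside 43.4% higher and 42.5% lower among all tested genes. CUL7 and FBXW8, whose products form a ubiquitin ligase for IRS1, rose by 2.65 and 1.87 on the log2 scale. CUL7 went from 136, 146 and 117 units to 830, 821 and 865, the largest rise of the list, and TRIB2 rose by 1.55. TRIB3, a pseudokinase gene that binds AKT, was at -3.10, the AKT phosphatase gene PHLPP2 at -2.22 and SOCS7 at -2.10.

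FOXO kinases, carriers and regulators were mostly lower, with 20 of 25 falling and 4 rising and a median of -0.44, beside 42.5% lower among all tested genes. With libraries scaled to equal totals 16 fell and 4 rose, and with quantile normalization 16 fell and 8 rose. DYRK1A was at -1.77 and STK4 at -1.67, both genes for kinases that phosphorylate FOXO proteins, and the ubiquitin ligase gene MDM2 at -1.48. SKP2, which encodes a ubiquitin ligase component acting on FOXO1, rose by 1.12, the deubiquitinase gene USP7 by 0.68 and AKT1 by 0.61. The 6 listed 14-3-3 genes that passed the filter, from YWHAB to YWHAZ, were called lower as deposited, at -0.09 to -1.01, but YWHAE and YWHAZ changed sign in both other scalings. There they stood at 0.03 and 0.01 with equal totals, not called, and at 0.07 and 0.19, called higher, with quantile normalization, while the other 4 stayed lower.

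Genes listed as FOXO targets did not move as one. Leaving out those whose direction the filter fixed, 9 of 33 rose and 19 fell, with a median of -0.41, and 5 were not called, beside 43.4% higher and 42.5% lower among all tested genes. RBL2, a retinoblastoma relative, rose from 490, 520 and 537 units to 2614, 2656 and 2681, a log2 fold change of 2.36, with PLK1 at 1.65 and CITED2 at 1.52. The stress genes GADD45B and SESN2 were at -3.62 and -2.33, and PIK3R3, a PI3-kinase regulatory subunit gene, at -2.44. The list joins genes that FOXO proteins activate and genes that they repress, such as CCND1 and CCND2.

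**Figure D3:**
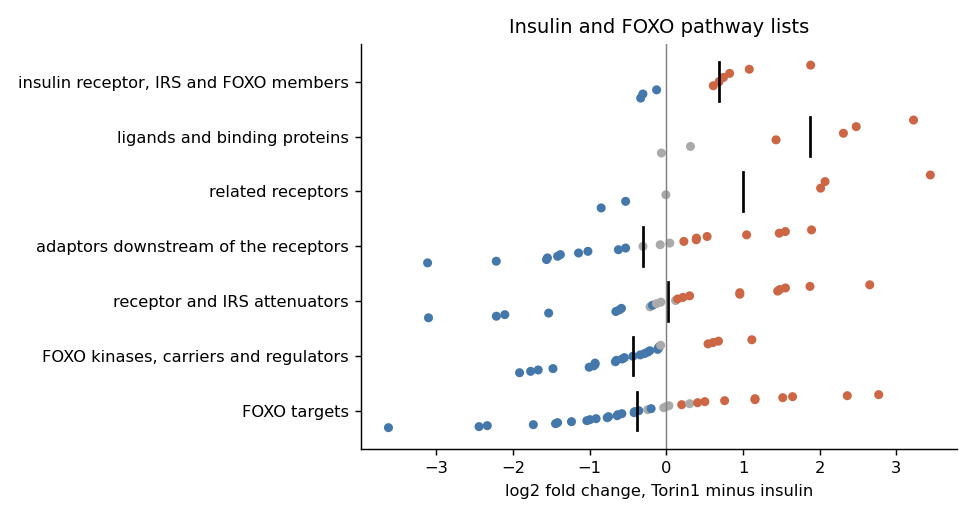
Log2 fold change (horizontal axis, Torin1 minus insulin) of every tested gene of each list, with orange for called higher, blue for called lower and grey for not called, and a black bar at the list's median. The medians run from -0.44 for FOXO regulators to 1.87 for ligands and binding proteins, which is 1.43 without IGFBP3.

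For each gene the 2 others with the most similar values over the 6 libraries were sought, by the root mean square difference of centred log2 values. The libraries form only 2 groups, so this likeness is mostly an equal fold change. INSR lay closest to CHD6 and SREK1, IRS2 to MED16 and PCBP2, GRB10 to GLTSCR2 and CRIM1, and FOXO4 to PTPRK and IFT140. IGF1R lay closest to RAD54L2 and SLC26A6, FOXO1 to PPP1R13B and ATP6V1E2, FOXO3 to C12orf10 and TUFM, IRS1 to ZNF45 and PTPMT1, and IRS4 to FUK and NAV1. The differences ran from 0.012 for FOXO3 with C12orf10 to 0.13 for IRS4 with NAV1.

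m6A sites were spread very unevenly over the 9 genes. IGF1R had 45 listed sites with insulin and 33 with Torin1, and IRS2 had 42 and 36. FOXO3 had 27 and 14, FOXO1 16 and 7, INSR 11 and 9, GRB10 8 and 8, FOXO4 7 and 5, IRS1 3 and 6, and IRS4 0 and 1. Among 9214 protein-coding genes with a site in the insulin list the median was 5 sites, and 84 had at least as many as IGF1R and 110 at least as many as IRS2. These are numbers from 1 list per condition, so they have no replicate test.

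The authors listed each position once, under 1 replicate. Under replicate 2 the members had 48 sites with insulin and 4 with Torin1, as the lists as a whole had 39670 and 1552. Of the 8 members with 5 or more sites in either list, 6 had fewer with Torin1, beside 71.6% of 5374 genes. The median ratio of Torin1 to insulin sites was 0.776 for these members and 0.625 for all such genes. For the 9 genes together the direction turned among sites with at least 3 substituted reads, with 27 for insulin and 45 for Torin1. IRS2 then had 18 and 26, IGF1R 6 and 8, FOXO3 0 and 5 and FOXO1 0 and 1. Such sites made up 16.98% of member sites with insulin and 37.8% with Torin1. In the whole lists they made up 15.99% of 96671 insulin sites and 18.48% of 63578 Torin1 sites. The whole lists thus kept more such sites with insulin, and the turn was not seen there. Under replicate 1 alone the 9 genes had 102 and 103 sites. There 3 of 7 members with 5 or more sites had fewer with Torin1, IGF1R with 29 and 27, FOXO1 with 9 and 7 and FOXO3 with 15 and 10, beside 40.5% of 4000 genes. The median ratio of Torin1 to insulin sites under replicate 1 was 1 for these 7 members and 1.11 for all such genes. This is the reverse order of the ratios over all listed sites. IRS2 had 31 and 34 under replicate 1, INSR 7 and 7, GRB10 6 and 8 and IRS1 2 and 6.

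**Figure D4:**
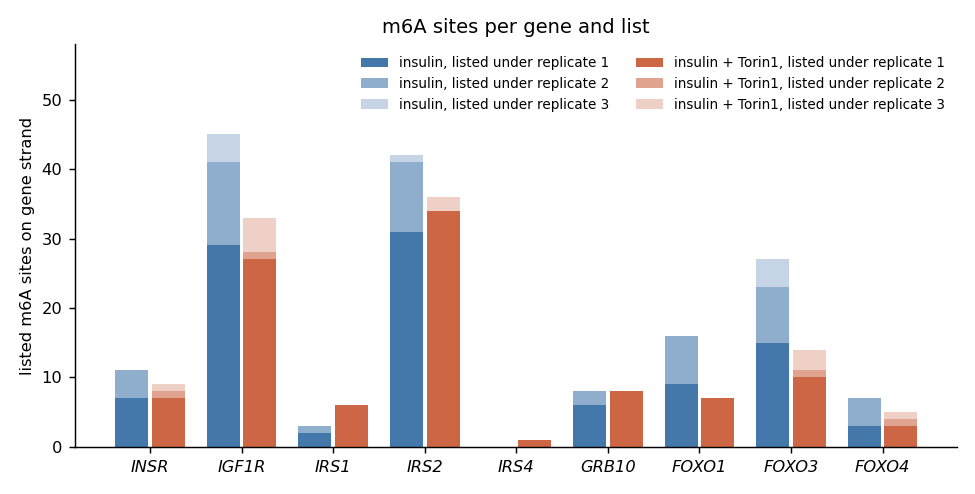
Number of listed m6A sites on the gene strand (vertical axis) for each gene, with blue bars for insulin and orange for insulin with Torin1, divided by the replicate under which the authors listed each site. Sites under replicate 2 make up 48 of 159 with insulin and 4 of 119 with Torin1.

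A site is given as the 5 bases around the adenosine, read from the deposited lists, with the methylated base in capitals. The site with the most substituted reads is shown for the genes that carry the larger numbers, positions being hg38. Among tied sites the one with the most reads is shown, which applied to both lists of IGF1R and to GRB10. The sites tied with those of IGF1R were agAca and gaAca, and the one tied in GRB10 was also tgAct.
IRS2, chromosome 13, 109782327, both lists: agAcc
IGF1R, chromosome 15, 98649132, insulin list: gaAct
IGF1R, chromosome 15, 98961735, Torin1 list: gaAct
INSR, chromosome 19, 7115488, insulin list: gaAct
GRB10, chromosome 7, 50592805, insulin list: tgAct
FOXO1, chromosome 13, 40560111, Torin1 list: ggAct
FOXO3, chromosome 6, 108664051, Torin1 list: ggAct
Sites opening with GGAC made up 30.8% of member sites with insulin and 38.7% with Torin1, beside 31.5% and 32.9% in the whole lists. In IRS2 they were 21 of 42 and 20 of 36.

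IRS2 (chromosome 13, 109752695 to 109786583, minus strand) carried the best covered sites of the 9 genes. The median number of reads over a site was 38.5 with insulin and 132.5 with Torin1, beside 8 and 12 in the whole lists. The sites fell into separate blocks, with 29 of 42 insulin sites and 26 of 36 Torin1 sites within 5000 nt of the gene start. Another 12 and 10 lay within 5000 nt of the gene end. Nearly all of the IRS2 coding sequence is known to lie in the first exon, and the last exon holds mostly 3' untranslated sequence. An exon annotation was not used here.

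The IRS2 sites recurred between the lists more than those of the other genes. Of them, 32 positions were in both lists, 76.2% of the insulin sites and 88.9% of the Torin1 sites, beside 28.3% and 43.1% for all sites. Recurrence rose with the number of reads, and among sites with 20 to 100 reads 27 of 30 IRS2 insulin sites recurred, against 50.3% of 21443 such sites in all. With Torin1 they were 9 of 11, against 64.3% of 19954. The difference was not tested, since sites of 1 gene share their source. IGF1R shared 16 positions, FOXO3 9, INSR 5, FOXO1 and GRB10 4 each, FOXO4 1, and IRS1 and IRS4 0.

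Reads over the shared IRS2 positions were more numerous with Torin1. At the 23 positions listed under replicate 1 in both lists there were 1036 reads with insulin and 4435 with Torin1, a 4.28-fold difference. All 16264 such positions together had 2.20 times as many reads with Torin1. At the 9 such positions of IGF1R the reads went from 208 to 316, a 1.52-fold difference. These are sums from 1 miCLIP library per condition, not scaled to its depth, and neighbouring positions can count the same read again, so they were not set against the mRNA values.

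The most substituted IRS2 site, agAcc at 109782327, lies 4256 nt into the gene body. It had 15 of 58 reads substituted with insulin and 30 of 118 with Torin1, which is 25.9% (Wilson 95% interval 16.3% to 38.4%) and 25.4% (18.4% to 34.0%). The fractions were nearly equal and the intervals overlapped almost fully. At 109783838, a ggAca site, 10 of 52 reads were substituted with insulin (19.2%, 10.8% to 31.9%) and 26 of 358 with Torin1 (7.26%, 5% to 10.4%). At 109756186, a tgAct site 3491 nt from the gene end, 8 of 50 and 15 of 403 reads were substituted, which is 16% (8.34% to 28.5%) and 3.72% (2.27% to 6.05%). The intervals at the last pair of positions did not overlap. IRS2 had 14 positions with 3 or more substituted reads in both lists, and at the other 12 the intervals overlapped. Intervals cover counting error only, and the reads may not be independent molecules.

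Over the 23 IRS2 positions under replicate 1 in both lists, 9.65% of reads were substituted with insulin and 5.10% with Torin1, and 20 of 23 positions were lower with Torin1. For all 16264 positions the shares were 7.97% and 4.24%, and 71.4% were lower. The lower fraction at IRS2 thus stood beside a lower fraction in the lists as a whole. Only positions with at least 1 substituted read are listed, so a position with few reads cannot be listed at a low fraction, and reads were more numerous with Torin1 at 23 of the 23 IRS2 positions. With 50 or more reads in both lists the shares were 9.92% and 5.26% over 10 IRS2 positions and 4.93% and 2.63% over all 2688. Without a limit on reads, the 19 positions under replicate 1 in both lists in the other genes had 8.88% and 7.39% substituted. Of these, 0 had 50 or more reads in both lists.

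**Figure D5:**
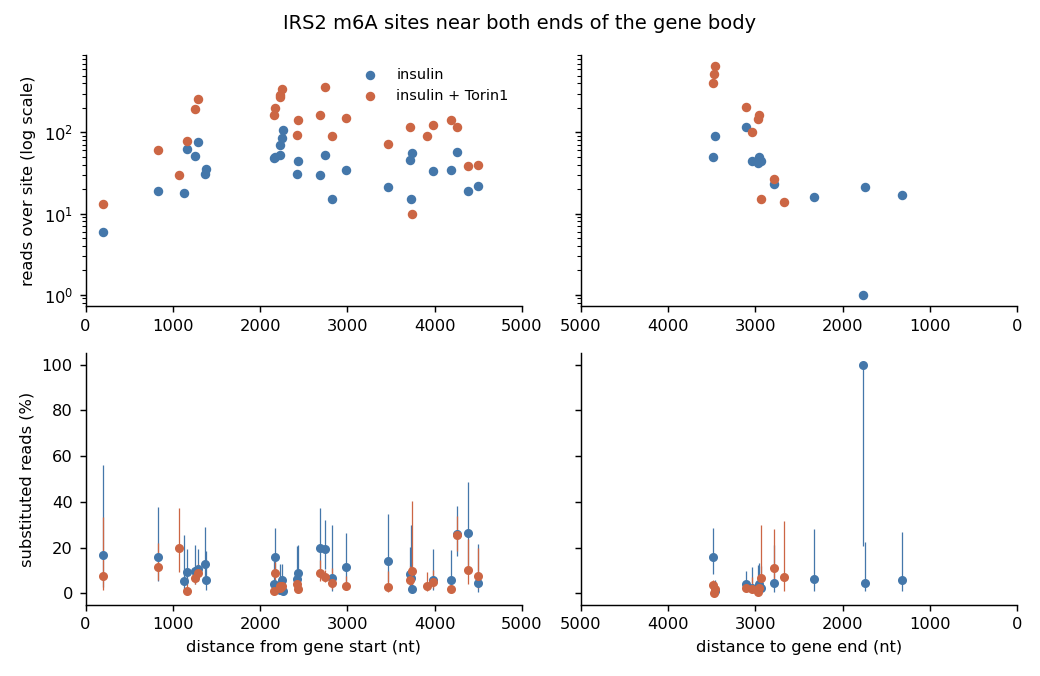
IRS2 sites by distance from the gene start (left) and to the gene end (right), with reads over each site on a log axis (top) and the percent of substituted reads with Wilson 95% intervals (bottom), in blue for insulin and orange for insulin with Torin1. Most positions have more reads with Torin1, and the site 4256 nt from the start has 25.9% and 25.4% of its reads substituted.

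IGF1R (chromosome 15, 98648539 to 98964530, plus strand) had 5 insulin sites within 5000 nt of its start and 15 within 5000 nt of its end. With Torin1 these numbers were 2 and 12. Further sites of both lists lay just beyond the window at the end, between 7463 and 5647 nt from it. The gaAct site at 98649132, 593 nt into the gene body, was the only position outside IRS2 with 3 or more substituted reads in both lists, with 4 of 39 and 3 of 58 reads. That is 10.3% (Wilson 95% interval 4.06% to 23.6%) with insulin and 5.17% (1.77% to 14.1%) with Torin1, with overlapping intervals.

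The sites of INSR, GRB10 and FOXO1 lay mainly near the gene end. Within 5000 nt of it were 8 of 11 insulin and 8 of 9 Torin1 sites of INSR (chromosome 19, 7112265 to 7294414, minus strand). For GRB10 (chromosome 7, 50590068 to 50793453, minus strand) they were 8 of 8 and 7 of 8, and for FOXO1 (chromosome 13, 40555667 to 40666641, minus strand) 16 of 16 and 7 of 7. IRS1 (chromosome 2, 226731312 to 226799820, minus strand) had none of its sites there, and 2 of 3 and 6 of 6 lay within 5000 nt of its start. Many sites rested on 1 substituted read, 95 of 159 over the 9 genes with insulin and 59 of 119 with Torin1, and for FOXO1 14 of 16 and 5 of 7. Whether a site was truly absent from the other list was not tested.

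FOXO3 (chromosome 6, 108559825 to 108684774, plus strand) had 4 insulin sites within 5000 nt of its start, and 1 of these fell in a RefSeq window around an alternative start, which gives its flanks. The 5 bases with the methylated adenosine in the middle are in capitals, 5′ to 3′.
FOXO3, chr6:108561003-108561031: ggcagcgggcgaGGACTcgccgaggacgg
The adenosine at 108561017 was in both lists, with 2 of 22 reads substituted with insulin and 1 of 1 with Torin1. FOXO3 had no insulin site with 3 or more substituted reads and 5 Torin1 sites, the best supported being ggAct at 108664051 with 5 of 61 reads, while 1 of 29 was substituted there with insulin. FOXO4 (chromosome X, 71095851 to 71103532, plus strand) had no site with 3 or more substituted reads in either list. The single site of IRS4 (chromosome X, 108719946 to 108736563, minus strand) had 1 of 3 reads substituted, with Torin1.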

How the data were processed

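The authors deposited 1 expression table and 1 list of m6A sites per condition. Per the submitters' processing notes, the genome was hg38 and the tools were STAR, BWA 0.7.1, DESeq and DESeq2 1.22.2, with no role given. The expression values that the authors deposited are used as a score, because they were normalized between libraries and rounded, as the spacing of low values in 3 libraries shows, and no test for raw counts was used. The value of each site that the authors deposited is a fraction: reads with the substitution over the number of reads covering it.

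Two-sided limma tests (version 3.58.1, R 4.3.3) used log2(value + 1), with the prior variance following the mean level, and took in genes reaching 10 units in 3 or more libraries. Fold changes on this scale understate the change of low genes. The procedure was checked on simulated data. Gene bodies came from RefSeq (GRCh38.p14) and strands from its promoter table.

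The 9 genes and the lists were chosen with earlier results of these data known. Named list genes are up to 3 of the largest rises and 3 of the largest falls per list with a mean of at least 50 units and no overlap between groups. Sites named are those with the most substituted reads per gene and list, and positions with at least 3 substituted reads in both lists, of which the text describes a part. The labels name no separate cultures for the triplicates, so the p-values reflect no more than how these libraries varied, and that variation may be technical. Alternatives were other pseudocounts, filters and scalings, left-out libraries, a replicate block and stricter site filters.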

Additional observations from a re-analysis of the deposited data

How the results depend on the processing

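The 6 rises among the 9 genes were called by limma under each pseudocount, filter, scaling and left-out library tried. The test beyond 1.5-fold was run only on the values as deposited, with the main pseudocount and filter. It called 5 of the 6 rises, and whether those calls hold under the other settings was not tested. The genes called lower numbered 3, but 1 with scaling to equal totals, 1 with quantile normalization, where FOXO3 was at 0.016, and 0 beyond 1.5-fold. Beyond 1.5-fold the calls over all genes were 3462 higher and 3115 lower in place of 6010 and 5888, and 33 rather than 59 pathway list genes were lower. With the replicate block in the fit, 6 of the 9 genes were higher and 3 lower, and 5983 and 5867 of all genes. Same-numbered libraries did not deviate together (correlations of -0.071, 0.0050 and -0.018 over 11675 genes). Normalized values alone cannot settle whether the numbers pair the samples. Member sites with at least 3 substituted reads numbered 27 with insulin, 45 with Torin1 and 15 in both lists. Under replicate 1 alone there were 102 with insulin and 42 in both, and with at least 10 reads 85 with insulin. Leaving out the sites listed under 1 replicate in turn gave 57 to 159 sites with insulin, 16 to 119 with Torin1 and 10 to 71 in both. The lowest values came without replicate 1, insulin replicate 1 for the first and Torin1 replicate 1 for the others. Positions listed under a replicate left out may also have been found by others.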

Other observations

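The body of IGF1R also held m6A sites on the opposite strand, which the counts above leave out. There were 19 with insulin, 11 under replicate 1, 7 under replicate 2 and 1 under replicate 3, and 0 with Torin1. Of these, 7 lay inside the antisense RNA gene IRAIN (chromosome 15, 98645863 to 98650787, hg38) and 12 between 98945903 and 98962917. Each had at most 8 reads. Over all protein-coding genes 10.6% of sites in gene bodies were on the opposite strand with insulin and 8.67% with Torin1. Of 164 genes with 10 or more such sites with insulin, 13 had 0 with Torin1. With a single list for each condition, no test was made.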
